A study of Mus musculus with 26 samples.

Results

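All-trans retinoic acid (ATRA) was compared with no ATRA in LSD1 knockout cells of the H9M model, mouse myeloid progenitors transformed by Hoxa9 and Meis1. The comparison rests on 6 of the 26 samples of the series: 3 RNA-seq libraries titled H9M KO + ATRA and 3 titled H9M KO W/O ATRA, chosen by title. All genes that passed a filter on low counts were tested, 14663 of 48795. Cells of both groups carried a conditional Lsd1 allele on a C57BL/6 background and were grown with interleukin 3, interleukin 6 and stem cell factor. Both had received 4-hydroxytamoxifen (4-OHT, 0.1 µM for 72 h) to delete the gene, and the ATRA dose was 1 µM. The strain field of every RNA library, knockouts included, reads CreERT2-;LSD1TM1Schuele, and the labels do not say whether its sign marks cells without the recombinase. The labels do not say how long ATRA was given, what the other cells received in its place, or whether libraries of a group came from separate cultures. The p-values therefore measure the spread between these libraries, which may be technical. H9M control (CTL) cells with and without ATRA and MN1-transformed knockout cells with and without ATRA, 3 libraries each, serve to show where the H9M knockout response differed. The labels tie 4-OHT to the knockout and do not say whether control cells received it, so knockout and 4-OHT exposure cannot be told apart in comparisons with controls.

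Retinoic acid enters the nucleus and binds retinoic acid receptors (RAR), which sit on DNA with retinoid X receptors (RXR) and exchange corepressors for coactivators when the ligand binds. Direct targets include genes that limit the signal, such as the CYP26 hydroxylases and the receptor RARβ. In acute promyelocytic leukaemia ATRA drives maturation of the blasts along the neutrophil line. LSD1, encoded by Kdm1a, removes methyl groups from histone H3 and works with the repressors GFI1 and GFI1B in myeloid cells.

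The 3 libraries with ATRA held 22538993, 25241273 and 27761756 counts, and the 3 without held 22402558, 25062027 and 27305060. Levels are given as CPM, the count scaled to the library's total. Kdm1a, the deleted gene (ENSMUSG00000036940.15, chromosome 4, 136550533 to 136602787, GRCm38), had 11.5, 10.3 and 11.5 CPM with ATRA and 0.937, 0.998 and 0.952 CPM without. Both groups lay far below controls, which had 148 CPM with ATRA and 139 CPM without. Yet the libraries with ATRA held 11.7 times as much as those without (log2 fold change 3.54 ± 0.10, approximate SE, adjusted p = 1.6e-22). Kdm1a thus stood at 7.51% of its control level with ATRA and at 0.693% without. Where these reads come from was not tested. Each ATRA effect was also computed after 7.51% of the mean control counts with ATRA, and 0.693% of those without, had been taken off the knockout libraries, and this is called removal of the control share.

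The labelled cell type was looked at with 10 markers of myeloid progenitors, among them Hoxa9 and Meis1, the transforming genes of the model. All 10 were measured. Their summed level was 42211 to 47748 CPM with ATRA and 35552 to 36642 CPM without. Most of it was Hoxa9, so the sum says little about cell type. Ptprc, the pan-leukocyte CD45 gene, had a mean of 385 CPM with ATRA and 363 CPM without. Some defining markers of other lineages had no count in any of the 6 libraries: Ms4a1 and Pax5 of B cells, Cd3e and Cd8a of T cells, Slc4a1 of erythroid cells, Tpsb2 and Fcer1a of mast cells, Col3a1 of stromal cells and Cdh5 of endothelial cells. Other members of the same lists had counts: the summed level was 366 to 375 CPM with ATRA and 436 to 458 CPM without for stromal genes, 232 to 235 CPM with ATRA and 203 to 212 CPM without for mast cell and basophil genes, 155 to 161 CPM with ATRA and 91.9 to 93.3 CPM without for B cell genes, and 74.4 to 78.6 CPM with ATRA and 77.2 to 80.2 CPM without for megakaryocyte genes. In bulk RNA, fewer cells of a type and less RNA per cell cannot be told apart.

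Genes that break down retinoic acid were nearly absent without ATRA and rose with it. Cyp26a1, the hydroxylase that clears retinoic acid (ENSMUSG00000024987.5, chromosome 19, 37697738 to 37701536, GRCm38), had 27.3, 32.4 and 31.3 CPM with ATRA and 0.0446, 0 and 0.0732 CPM without. Its untreated group held 3 counts in all, which puts the ratio at 259.7 to 3687 (95% counting interval). Rarb, the gene of RARβ (ENSMUSG00000017491.8, chromosome 14, 16430839 to 17082331), had 15.8, 15.7 and 17.8 CPM with ATRA and 0.268, 0.239 and 0.0366 CPM without, 93.9-fold higher (log2 fold change 6.55 ± 0.21, adjusted p = 2.57e-21). For both genes all libraries with ATRA stood above all libraries without. Both are shown here with the 250 bases before a RefSeq start of the gene, since each holds a DR5. This is the direct repeat of the receptor half-site with a 5-base spacer that RAR and RXR are known to bind. Each of these starts, and the DR5 before it, lies inside the gene span given above and not at its outer end. The sequences are from RefSeq (GRCm38.p6) and run in the direction of the gene, with the DR5 in capitals. The Cyp26a1 window lies at chr19:37697558-37697807 on the plus strand, with its DR5 on the opposite strand, 32 to 16 bases before the start. The Rarb window lies at chr14:16575477-16575726 on the minus strand, with its DR5 on the strand of the gene, 53 to 37 bases before the start.
Cyp26a1: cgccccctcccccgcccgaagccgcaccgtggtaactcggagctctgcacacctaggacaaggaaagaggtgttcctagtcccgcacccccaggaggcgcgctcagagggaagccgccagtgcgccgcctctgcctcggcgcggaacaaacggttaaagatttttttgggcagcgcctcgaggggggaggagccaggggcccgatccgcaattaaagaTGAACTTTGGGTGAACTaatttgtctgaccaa
Rarb: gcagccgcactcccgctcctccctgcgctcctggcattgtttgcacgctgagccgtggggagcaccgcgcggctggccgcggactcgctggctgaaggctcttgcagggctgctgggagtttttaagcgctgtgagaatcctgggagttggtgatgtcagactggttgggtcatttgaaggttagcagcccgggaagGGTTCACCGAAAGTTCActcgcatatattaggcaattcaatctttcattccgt
DR1, DR2 and DR5 repeats were searched on both strands in windows of 300 bases, 250 before and 50 after the start, and a match of each repeat was counted whether or not it overlapped another. A DR5 stood in 6 of the 10316 tested genes with a window (0.0582%) and in 0.0974% of all 32851 windows. Among the 235 genes called at least 2-fold higher with ATRA that had a window, 3 held a DR5 (1.28%): Cyp26a1, Rarb and the platelet chemokine gene Ppbp, the last singled out after the search. None of the 235 held a DR1 or a DR2, which stood in 0.291% and 0.116% of the tested genes with a window. Of 69 genes named by rule and examined here, 49 had a window, and apart from Cyp26a1 and Rarb none of these held any of the 3 repeats in the 250 bases before the start. A match is a description of letters, not of binding.

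Cyp26b1, a second hydroxylase gene (ENSMUSG00000063415.12, chromosome 6, 84571414 to 84593908), had 25.9, 31.9 and 37.5 CPM with ATRA and 0, 0.0798 and 0 CPM without, from 2 counts over the untreated group, a ratio of 332 to 9932. Cyp26c1, the third of the family, had 1.46, 1.78 and 1.22 CPM with ATRA and no counts without, at least 37-fold higher against a floor of 3 counts over the group. Each of the 3 CYP26 genes was higher in every library with ATRA than in any without. Cyp26a1 and Cyp26c1 were at or near 0 in all untreated groups compared here, so libraries with ATRA lifted them over the count filter and their difference follows in part from it. Dhrs3, whose product turns retinaldehyde back to retinol, had 216, 215 and 219 CPM with ATRA and 54.8, 53.7 and 53.7 CPM without, a 4.08-fold rise (log2 fold change 2.03 ± 0.04, adjusted p = 1.33e-26).

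Aldh1a3, which makes retinoic acid from retinaldehyde (ENSMUSG00000015134.15, chromosome 7, 66390892 to 66427477), also rose. It had 302, 327 and 293 CPM with ATRA and 22.1, 21.1 and 22.6 CPM without, 14.3-fold higher (log2 fold change 3.83 ± 0.05, adjusted p = 5.71e-31). The control share would supply 19.9% of its level with ATRA, and after removal its log2 fold change was 3.71. Aldh1a1 and Aldh1a2, its relatives, had no counts in any of the 6 libraries. Among binding proteins, Fabp5, a fatty acid and retinoic acid carrier, fell to 125 ± 1.61 CPM with ATRA against 164 ± 1.91 CPM without (SD, n = 3). Of the 20 genes on the list of retinoid metabolism and binding, 11 could be tested, of which 5 rose, 2 fell and 4 did not pass the test, with 1 fall without library 3 of either group. Their median log2 fold change was 1.11, beside -0.01 over all tested genes, of which 13.9% were called higher and 15.4% lower.

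Apart from Rarb, the receptor genes changed by small amounts. Rara, the receptor that ATRA engages in promyelocytic leukaemia (ENSMUSG00000037992.16, chromosome 11, 98927800 to 98974942), had 74.2, 76.5 and 77.8 CPM with ATRA and 64.7, 68.5 and 64.6 CPM without (log2 fold change 0.23 ± 0.06, adjusted p = 0.00255). Rarg, the third RAR gene, had 10.5, 9.75 and 10.7 CPM with ATRA and 14.2, 14.2 and 15.1 CPM without (log2 fold change -0.46 ± 0.07, adjusted p = 7.02e-06). Rxra, the partner receptor, had 16.7, 17.9 and 17.8 CPM with ATRA and 22.5, 23.1 and 24.6 CPM without (log2 fold change -0.39 ± 0.09). So Rara rose and Rarg and Rxra fell, with no overlap between the groups in any of the 3, as in 41.2% of all tested genes. Nrip1, a corepressor that binds liganded nuclear receptors (ENSMUSG00000048490.13, chromosome 16, 76287403 to 76373827), had 22.9, 21.4 and 21.3 CPM with ATRA and 0.0893, 0.0399 and 0.146 CPM without, a 227-fold rise (log2 fold change 7.82 ± 0.20, adjusted p = 2.1e-23). The coactivator genes Ncoa3 and Ncoa2 rose to 147 and 100.5 CPM with ATRA against 92.1 and 85.7 CPM without. The corepressor gene Hdac3 did not pass the test, with 90.5 CPM with ATRA and 94.1 CPM without. Of 16 receptor and coregulator genes 15 could be tested, of which 6 rose, 3 fell and 6 did not pass the test (median 0.04).

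Other known responders to retinoic acid rose as well. Hic1, a zinc-finger repressor gene (ENSMUSG00000043099.4, chromosome 11, 75161377 to 75170255), had 52.4, 51 and 58.5 CPM with ATRA and 0.134, 0.16 and 0.146 CPM without, 362-fold higher (log2 fold change 8.50 ± 0.31, adjusted p = 1.28e-19). Cd38, an NAD-consuming ectoenzyme long used as a retinoid response marker in myeloid cells, had 88.6, 83.3 and 86.3 CPM with ATRA and 25.4, 28.3 and 27.2 CPM without (log2 fold change 1.70 ± 0.06). Tgm2, the gene of tissue transglutaminase, had 21.3, 24.2 and 22.7 CPM with ATRA and 0.893, 0.798 and 1.39 CPM without (log2 fold change 4.47 ± 0.11). For Tgm2 the control share would supply 91% of the level with ATRA, and after removal the means were 2.04 CPM with ATRA and 0.225 CPM without (log2 fold change 3.23, adjusted p = 7.86e-06). Cebpe, a granulocyte factor gene on the same list, did not pass the test, with 46.1 ± 2.45 CPM with ATRA and 52.1 ± 5.83 CPM without, but it passed as lower without W/O ATRA library 1 (log2 fold change -0.23, adjusted p = 0.00631). Of 24 genes on the list, 14 could be tested, of which 8 rose, 2 fell, 3 did not pass the test and 1 had no counts in these 6 libraries (median 2.03 over members with counts). Stra6, Stra8 and Crabp2, retinoid genes of other tissues, had no counts in any of the 6 libraries.

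**Figure D1:**
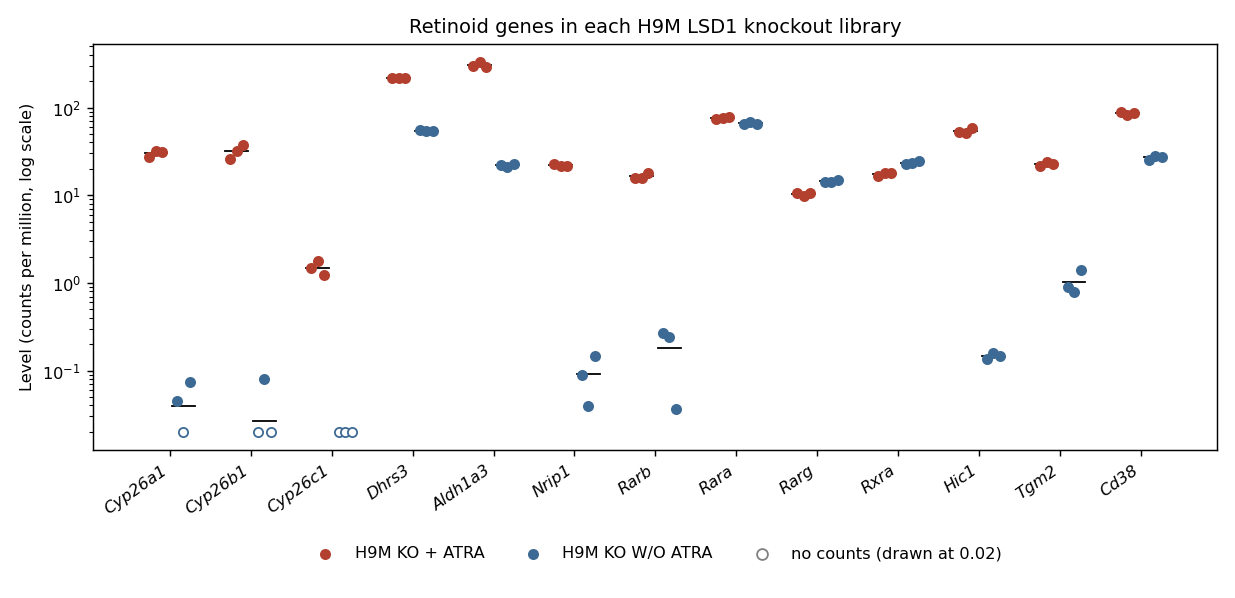
Level of 13 retinoid genes in each H9M knockout library, in CPM on a log axis. Red points are KO + ATRA, blue points KO W/O ATRA, open points libraries with no counts, and black bars group means; the CYP26 genes, Nrip1, Rarb and Hic1 are apart by the widest gap, and Rara, Rarg and Rxra lie close.

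Over all genes, 4305 of 14663 were called by edgeR's quasi-likelihood test at an adjusted p under 0.05 (29.4%). Of all tested genes, 2044 were higher (13.9%) and 2261 lower (15.4%) with ATRA, shares to hold beside each list count here. Most changes were small: 347 called genes were at least 2-fold higher (2.37%) and 198 at least 2-fold lower (1.35%). The groups did not overlap in 6037 genes (41.2%), so groups that stand apart in a named gene are common. After removal of the control share 4323 genes were called (29.5%), 4014 of them among the 4305 and in the same direction. The largest rises outweighed the largest falls, as the plot of all genes shows.

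**Figure D2:**
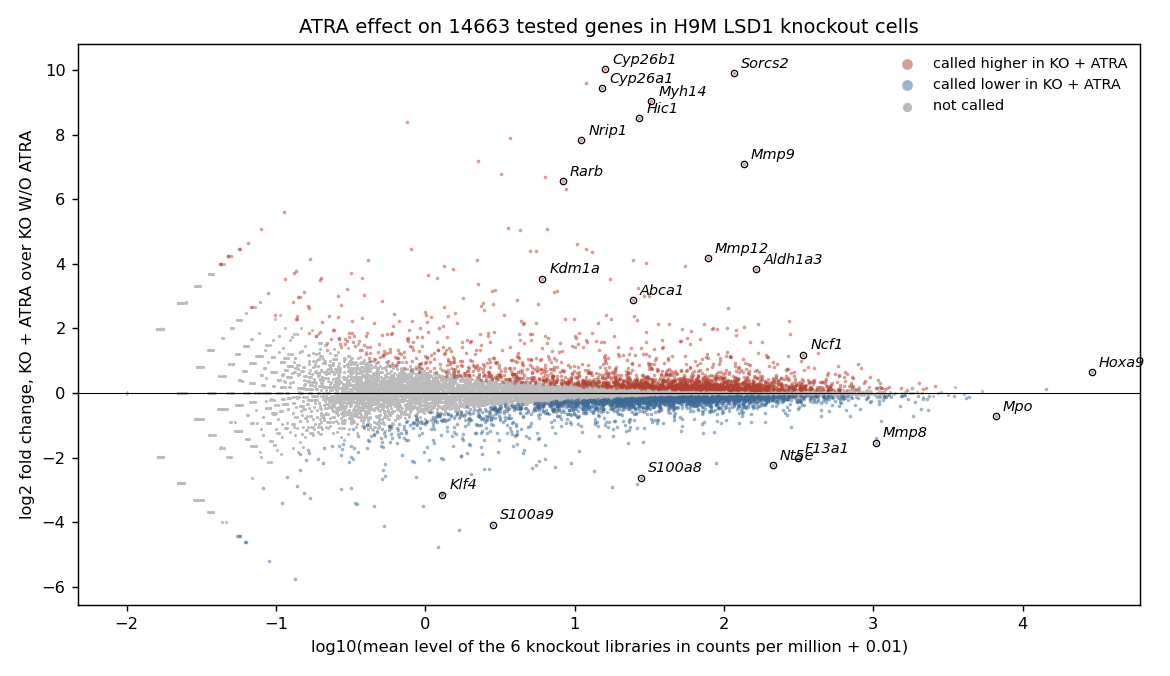
Log2 fold change of KO + ATRA over KO W/O ATRA for 14663 genes against their mean level in the 6 libraries. Red genes were called higher, blue genes lower and grey genes not called; the rises reach a log2 fold change of about 10 (Cyp26b1, 10.02) while the named falls end at S100a9 (-4.08).

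Of the 15 genes with the largest rise among those reaching 5 CPM without group overlap, the 4 retinoid genes above and Hic1 were 5. Sorcs2, a sorting receptor gene, had 214, 242 and 236 CPM with ATRA and 0.179, 0.319 and 0.22 CPM without, 959-fold higher (log2 fold change 9.91 ± 0.14, adjusted p = 5.31e-30). The non-muscle myosin gene Myh14 had 58.8, 70.6 and 64.8 CPM with ATRA and 0.312, 0.0399 and 0.0366 CPM without (log2 fold change 9.04 ± 0.20). Col14a1, a collagen gene, had 19.4, 25.4 and 26.6 CPM with ATRA and 0.0893, 0 and 0 CPM without. Each of these genes was almost silent without ATRA, and Col14a1, with 2 counts over that group, had a ratio of 248 to 7427. The control share would supply 9.46% of Sorcs2 and 10% of Myh14 with ATRA.

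Mmp9, gelatinase B of neutrophils and macrophages (ENSMUSG00000017737.2, chromosome 2, 164940326 to 164955850), had 245, 280.0 and 279 CPM with ATRA and 1.34, 2.59 and 2.01 CPM without, a 136-fold rise (log2 fold change 7.09 ± 0.11, adjusted p = 1.49e-28). Cdkn1c, the CDK inhibitor p57, had 19.1, 16 and 16.8 CPM with ATRA and 0.357, 0 and 0.293 CPM without (log2 fold change 6.33 ± 0.23). Maf, a transcription factor gene of macrophages and some lymphocytes, had 6.83, 6.81 and 7.31 CPM with ATRA and 0, 0.2 and 0.366 CPM without (log2 fold change 5.12 ± 0.30). In all 3 genes every library with ATRA was above every library without. Csn3 (casein), Ocm (a calcium-binding protein), Pde11a (a phosphodiesterase) and Plcl1 (a phospholipase C relative) rose as well, to means of 7.31, 6.33, 12.6 and 12.6 CPM with ATRA against 0.0255, 0.0521, 0.112 and 0.364 CPM without.

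Among the 15 largest falls were genes of alarmins, ectoenzymes and coagulation. S100a9, a subunit of calprotectin, had 0.266, 0.238 and 0.396 CPM with ATRA and 6.03, 5.71 and 4.28 CPM without, 16.9-fold lower (log2 fold change -4.08 ± 0.25, adjusted p = 1.43e-13). Its partner S100a8 had 7.81, 8.4 and 6.66 CPM with ATRA and 48, 49.3 and 45.8 CPM without (log2 fold change -2.62 ± 0.09). Nt5e, the ectoenzyme CD73 that makes adenosine from AMP, had 74.2, 73.3 and 71.8 CPM with ATRA and 355, 343 and 352 CPM without (log2 fold change -2.24 ± 0.05, adjusted p = 4.81e-24). All libraries with ATRA lay below all those without in these genes, which the choice of the 15 falls required. F13a1, the coagulation factor of monocytes and macrophages, had 118, 124 and 120.3 CPM with ATRA and 497, 499.9 and 506 CPM without, 4.08-fold lower. Itga1, the integrin chain that binds collagen, had 6.74, 6.26 and 6.41 CPM with ATRA and 47.7, 44.9 and 45.4 CPM without. Olfm1, Lrg1, Ms4a6d, Saa3, Lmna, Lpl, Tln2, Emp1, Apba1 and Stfa1 complete the 15, at 7.47-fold lower (Olfm1) to 3.37-fold lower (Apba1). Stfa1 has near-identical copies, so its count is uncertain.

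The genes that name the model rose. Hoxa9, a homeobox transcription factor gene (ENSMUSG00000038227.15, chromosome 6, 52223097 to 52227370), had 31878, 37628 and 36056 CPM with ATRA and 22290.0, 23519 and 22493 CPM without, 1.57-fold higher (log2 fold change 0.65 ± 0.05, adjusted p = 1.04e-12). Meis1, its DNA-binding partner (ENSMUSG00000020160.18, chromosome 11, 18880428 to 19019651), had 404, 439 and 421 CPM with ATRA and 267, 267 and 255 CPM without, 1.63-fold higher. The groups stood apart in both genes, and reads of the introduced and of the endogenous gene are not separated in these counts. Of 18 tested genes of the HOX and cofactor list, 4 rose, 10 did not pass the test and 4 had no counts in these 6 libraries (median 0.09 over members with counts). The other risers were the cofactor genes Pbx2 and Meis3, and Meis3, at 0.276 CPM with ATRA and 0.077 CPM without, did not pass without KO + ATRA library 2 or 3 or W/O ATRA library 1 or 2 (adjusted p = 0.0675 to 0.109). Hoxa10 and Hoxa7 had no counts in any of the 6 libraries and were tested because MN1 cells express them.

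Among the repressors that bring LSD1 to DNA, the paralogs moved in opposite directions. Gfi1 (ENSMUSG00000029275.17, chromosome 5, 107716655 to 107725805) had 345, 357 and 348 CPM with ATRA and 295, 296 and 302 CPM without (log2 fold change 0.26 ± 0.04, adjusted p = 2.6e-06). Gfi1b (ENSMUSG00000026815.14, chromosome 2, 28609450 to 28621982) had 78.5, 87.3 and 88.3 CPM with ATRA and 112, 128 and 116 CPM without (log2 fold change -0.46 ± 0.05, adjusted p = 1.94e-08). Gfi1 thus rose and Gfi1b fell, with no overlap in either, as in 41.2% of all tested genes. Spi1, the gene of the master myeloid factor PU.1 (ENSMUSG00000002111.8, chromosome 2, 91082374 to 91115759), had 185, 192 and 201 CPM with ATRA and 180.1, 178 and 186 CPM without (log2 fold change 0.11 ± 0.04, adjusted p = 0.0385) and its groups overlapped. The Spi1 call was lost without KO + ATRA library 2 or 3 or W/O ATRA library 1 or 2 (adjusted p = 0.0883 to 0.219), and with no filter (adjusted p = 0.0839). Irf8, a monocyte and dendritic cell factor gene (ENSMUSG00000041515.9, chromosome 8, 120736358 to 120756694), had 354, 339 and 366 CPM with ATRA and 395, 390.3 and 401 CPM without (log2 fold change -0.14 ± 0.04, adjusted p = 0.00593). The fall of Irf8 no longer passed after removal of the control share (log2 fold change -0.04, adjusted p = 0.544).

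Of 41 tested myeloid transcription factor genes, 9 rose, 15 fell and 17 did not pass the test (median -0.00). Cebpa, the factor that opens the granulocyte and monocyte line, had 480.1, 473 and 508 CPM with ATRA and 385, 384 and 408 CPM without, a small rise (log2 fold change 0.34 ± 0.03). Irf5, an interferon regulatory factor gene of macrophages, had 58.2, 55.7 and 59.1 CPM with ATRA and 18.8, 17.7 and 19.5 CPM without, 3.14-fold higher. Klf4, a factor gene of monocytes, had 0.355, 0.158 and 0.252 CPM with ATRA and 2.28, 2.43 and 2.23 CPM without (log2 fold change -3.15 ± 0.31, adjusted p = 1.6e-09). Factor genes of monocytes and macrophages thus went both ways. Myb and Cebpd fell, to 229 and 17.5 CPM with ATRA against 266 and 32.1 CPM without, and Runx1 and Cebpb did not pass the test, at 74.2 and 17.6 CPM with ATRA and 75.9 and 16.1 CPM without. Of 28 PU.1 target genes, 6 rose, 15 fell and 7 did not pass the test (median -0.12), and of 19 tested GFI1 and GFI1B targets, 5 rose, 10 fell and 4 did not pass the test (median -0.14).

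Genes of neutrophil granules mostly fell. Mpo, the myeloperoxidase of primary granules, had 4888, 4734 and 5159.9 CPM with ATRA and 8358, 8290.5 and 8112 CPM without, 1.65-fold lower (log2 fold change -0.72 ± 0.04, adjusted p = 1.32e-16). Elane, neutrophil elastase, had 1346, 1308 and 1459.8 CPM with ATRA and 2275, 2334 and 2279 CPM without (log2 fold change -0.72 ± 0.05). The groups stood apart in both, but another granule protease gene went the other way. Prtn3, proteinase 3, rose to 2210.5 ± 36.9 CPM with ATRA against 1801 ± 34.5 CPM without (log2 fold change 0.32 ± 0.05). Of 15 primary granule genes, 4 rose, 10 fell and 1 did not pass the test (median -0.38).

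Later neutrophil genes split likewise. Mmp8, the neutrophil collagenase gene, had 519.6, 518 and 532 CPM with ATRA and 1419, 1703 and 1520.4 CPM without, 2.91-fold lower (log2 fold change -1.54 ± 0.05, adjusted p = 1.68e-20). Cxcr2, the receptor that draws neutrophils to chemokines, had 9.36, 11.3 and 13.2 CPM with ATRA and 31.4, 35.6 and 34.9 CPM without (log2 fold change -1.56 ± 0.11). Ly6g, the surface marker of mouse neutrophils, had 24.6, 31.5 and 28.3 CPM with ATRA and 8.21, 8.7 and 8.42 CPM without (log2 fold change 1.76 ± 0.10, adjusted p = 8.19e-15). Ly6g and Mmp9 thus rose in the same libraries in which Mmp8, Cxcr2, S100a8 and Lcn2 fell. Of 35 neutrophil maturation genes 28 could be tested, of which 6 rose, 18 fell and 4 did not pass the test (median -0.63). Chil3 and Fpr2, which did not pass the filter, had no counts with ATRA and 20 and 26 counts without, at least 6.74-fold and 8.76-fold lower.

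Monocyte and macrophage genes also moved both ways. Adgre1, the macrophage marker F4/80, chosen here after its values were seen, had 188, 188 and 188 CPM with ATRA and 96.2, 106 and 106 CPM without (log2 fold change 0.90 ± 0.07). Fcgr3, an activating IgG receptor gene, had 712, 704 and 679.9 CPM with ATRA and 490.3, 465 and 492 CPM without (log2 fold change 0.56 ± 0.03). Lyz2, the lysozyme gene, had 348, 322 and 334 CPM with ATRA and 558, 528 and 575 CPM without (log2 fold change -0.70 ± 0.05, adjusted p = 2.4e-13). Adgre1 and Fcgr3 rose and Lyz2 fell, each with no overlap, as in 41.2% of all tested genes. Ly6c2, the marker of inflammatory monocytes, fell to 1899 ± 40.7 CPM with ATRA against 2757 ± 55 CPM without. Vcan, a proteoglycan gene of classical monocytes, fell to 182 ± 17 CPM with ATRA against 384 ± 14.1 CPM without, and Csf1r, the M-CSF receptor gene, fell to 25.8 ± 0.968 CPM with ATRA against 46.3 ± 1.28 CPM without. Of 42 genes on the list, 29 could be tested, of which 7 rose, 14 fell and 8 did not pass the test (median -0.46). Marco, Timd4 and Ace, markers of resident macrophages and patrolling monocytes, had no counts in the 6 libraries.

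The subunits of the phagocyte NADPH oxidase, the enzyme of the oxidative burst, did not move as one. Ncf1, the cytosolic organizer p47-phox, had 477, 459 and 463 CPM with ATRA and 206, 205 and 212 CPM without, 2.28-fold higher (log2 fold change 1.19 ± 0.03, adjusted p = 2.26e-22). Cybb, the catalytic membrane subunit, had 129, 128 and 130.4 CPM with ATRA and 244, 247 and 249 CPM without, 1.87-fold lower (log2 fold change -0.91 ± 0.05, adjusted p = 4.62e-16). Cyba, its membrane partner, did not pass the test, with 210.4 ± 9 CPM with ATRA and 208 ± 6.28 CPM without. The organizer was therefore up and the catalytic subunit down in the same 3 libraries. Of 7 genes, 2 rose, 3 fell and 2 did not pass the test.

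Receptors of the innate system were sampled next, beside 13.9% higher and 15.4% lower over all tested genes. Of 23 tested Fc, Siglec and C-type lectin receptor genes, 8 rose, 9 fell and 6 did not pass the test (median -0.13). Cd300lf, an inhibitory receptor gene, rose to 94.4 ± 4.68 CPM with ATRA against 25.4 ± 1.32 CPM without. Clec4d, an activating lectin gene, fell to 72.9 ± 0.95 CPM with ATRA against 133 ± 4.11 CPM without. Of 20 Toll-like receptor and inflammasome genes, 4 rose, 6 fell and 10 did not pass the test (median -0.10). Tlr2, the receptor of bacterial lipoproteins, fell to 44.7 ± 1.81 CPM with ATRA against 80.1 ± 4.2 CPM without, and Tlr13, a sensor of bacterial ribosomal RNA, rose to 191 ± 6.44 CPM with ATRA against 107 ± 0.796 CPM without. Of 17 tested MHC class II and dendritic cell genes, 7 rose, 4 fell and 6 did not pass the test (median 0.10), among them H2-Ab1, which encodes a class II beta chain, at 36.8 ± 1.29 CPM with ATRA and 29.2 ± 1.25 CPM without. Ciita, the transactivator of class II genes, had no counts.

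Cytokine receptors fell more often than they rose: of 28, 6 rose, 13 fell and 9 did not pass the test (median -0.20). Csf2rb, the signalling chain shared by the IL-3 and GM-CSF receptors, had 639.6, 681 and 675 CPM with ATRA and 908, 1011 and 924 CPM without (log2 fold change -0.49 ± 0.05). Il6st, the signalling chain of the IL-6 receptor, had 62.7, 66.2 and 64.8 CPM with ATRA and 126, 131 and 122 CPM without (log2 fold change -0.94 ± 0.05, adjusted p = 1.06e-16). Kit, the receptor of stem cell factor, had 148, 159 and 152 CPM with ATRA and 136, 133 and 130.4 CPM without (log2 fold change 0.22 ± 0.03). Receptors of the 3 cytokines in the medium therefore went different ways. Flt3, a progenitor receptor gene, rose to 40.7 ± 1.43 CPM with ATRA against 22.2 ± 1.24 CPM without, and Ifngr1, a chain of the interferon gamma receptor, rose to 737 ± 6.6 CPM with ATRA against 424 ± 3 CPM without. Of 24 tested chemokine and chemoattractant receptor genes, 4 rose, 6 fell and 14 did not pass the test (median 0.03). Over all tested genes 13.9% were higher and 15.4% lower.

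Adhesion genes were led by Itgb7, the integrin chain of gut homing, with 159.6, 167 and 172 CPM with ATRA and 38.9, 44.1 and 43 CPM without, 4.02-fold higher (log2 fold change 2.01 ± 0.07, adjusted p = 1.41e-19). Itgam, the CD11b chain used to follow myeloid maturation, had 154, 167 and 154 CPM with ATRA and 117, 132 and 120.5 CPM without (log2 fold change 0.39 ± 0.06). Both rose with no overlap, and of 23 adhesion genes 8 rose, 5 fell and 10 did not pass the test (median 0.02). Among matrix proteins and proteases, 22 of 26 could be tested, of which 7 rose, 8 fell, 6 did not pass the test and 1 had no counts in these 6 libraries (median 0.09 over members with counts). Mmp12, the macrophage elastase gene, had 157, 145 and 137 CPM with ATRA and 8.26, 7.38 and 9.19 CPM without, a 17.9-fold rise (log2 fold change 4.17 ± 0.07, adjusted p = 4.9e-28). With Mmp9 and Mmp12 far higher and Mmp8 far lower, the metalloprotease genes changed in both directions.

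Progenitor genes rose more often than they fell: of 30 tested, 12 rose, 5 fell, 10 did not pass the test and 3 had no counts in these 6 libraries (median 0.17 over members with counts). Msi2, an RNA-binding protein gene of stem cells, rose to 127 ± 6.76 CPM with ATRA against 60.6 ± 2.18 CPM without, and Sox4 rose to 175 ± 19.6 CPM with ATRA against 106 ± 6.74 CPM without. Cd34 also fell, to 850.5 ± 18.1 CPM with ATRA against 964 ± 18.6 CPM without, but not after removal of the control share (adjusted p = 0.0889).

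Of 33 cell cycle genes, 4 rose, 6 fell and 23 did not pass the test (median -0.05), beside 13.9% higher and 15.4% lower over all tested genes. E2f2, an S phase activator gene, rose to 178 ± 0.829 CPM with ATRA against 96.1 ± 4.65 CPM without. Mki67 did not pass the test, with 369 ± 84.7 CPM with ATRA and 405 ± 65.3 CPM without, but it passed as lower without KO + ATRA library 2 (log2 fold change -0.32, adjusted p = 0.03) and with no filter (-0.11, adjusted p = 0.0216). Of 28 genes of CDK inhibitors, D cyclins and p53 targets, 7 rose, 12 fell, 8 did not pass the test and 1 had no counts in these 6 libraries (median -0.13 over members with counts). Beside Cdkn1c, the D cyclin gene Ccnd2 rose to 320.4 ± 14.6 CPM with ATRA against 199.8 ± 1.35 CPM without, while Cdkn1a, the p21 gene, fell to 62.9 ± 0.785 CPM with ATRA against 117 ± 5.4 CPM without. Of 33 tested genes of the Myc network and ribosome biogenesis, 5 rose, 15 fell, 12 did not pass the test and 1 had no counts in these 6 libraries (median -0.08 over members with counts), with 3 rises without KO + ATRA library 2 or 3 or W/O ATRA library 3. Myc itself fell to 269 ± 7.91 CPM with ATRA against 370.3 ± 10.3 CPM without (log2 fold change -0.44 ± 0.04). Of 18 tested BCL2 family and cell death genes, 6 rose, 2 fell and 10 did not pass the test (median 0.07). Neither fall passed without KO + ATRA library 2 or W/O ATRA library 3, or with the 12 H9M or the 6 knockout libraries alone. Of the 2, Bax was also lost after removal of the control share (adjusted p = 0.0929) and Bcl2l1 with no filter (adjusted p = 0.1003).

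Most sterol and fatty acid synthesis genes fell. Of 26 sterol and fatty acid synthesis genes, 4 rose, 18 fell and 4 did not pass the test (median -0.22). Hmgcs1, the cholesterol synthesis enzyme gene, had 73.6, 69.4 and 65.6 CPM with ATRA and 105, 116 and 111 CPM without (log2 fold change -0.65 ± 0.05, adjusted p = 2.24e-12), and Sqle, squalene epoxidase, fell to 99 ± 0.614 CPM with ATRA against 154 ± 4.11 CPM without. Abca1, a cholesterol exporter and LXR target gene, had 34.5, 48.5 and 45.5 CPM with ATRA and 5.8, 6.46 and 5.64 CPM without, 7.32-fold higher (log2 fold change 2.87 ± 0.12). Its relative Abcg1 rose too. Of 12 tested LXR and PPAR targets, 5 rose and 7 did not pass the test (median 0.07), and 3 rose without KO + ATRA library 2 or W/O ATRA library 3. Of the synthesis genes, 2 rose without KO + ATRA library 2 or after removal of the control share. Whether the lists differ was not tested.

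Signalling and interferon genes leaned upward, beside 13.9% higher and 15.4% lower over all tested genes. Of 26 tested TGF-beta and BMP pathway genes, 11 rose, 5 fell, 9 did not pass the test and 1 had no counts in these 6 libraries (median 0.12 over members with counts). Smad3, the transducer of TGF-beta signals, had 58.4, 60.9 and 57.6 CPM with ATRA and 13.6, 12.9 and 14.1 CPM without, 4.44-fold higher (log2 fold change 2.15 ± 0.06, adjusted p = 1.03e-22). Of 36 tested interferon response genes, 17 rose, 4 fell and 15 did not pass the test (median 0.20). Rsad2, the antiviral enzyme viperin, had 3.95, 4.16 and 4.47 CPM with ATRA and 0.982, 0.519 and 0.696 CPM without (log2 fold change 2.56 ± 0.19). Isg15, of the same list, did not pass the test, with 1.32 CPM with ATRA and 1.1 CPM without.

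**Figure D3:**
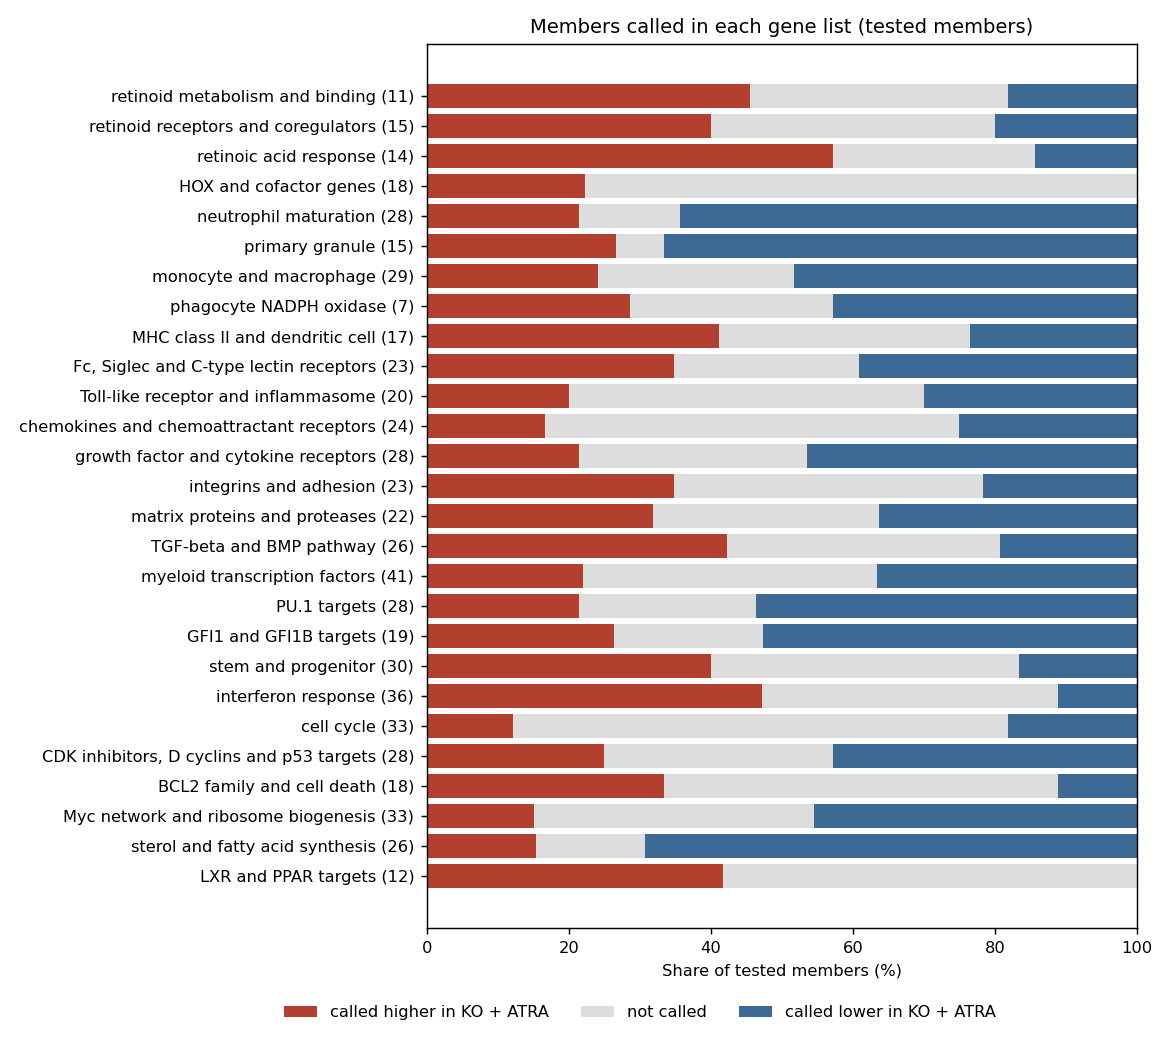
Share of tested members called higher (red), not called (grey, members without counts included) and called lower (blue) with ATRA in 27 gene lists, with the number of tested members in brackets. Retinoic acid response genes have the longest red bar (8 of 14), and sterol and fatty acid synthesis genes (18 of 26), primary granule genes (10 of 15) and neutrophil maturation genes (18 of 28) the longest blue bars.

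Markers of other cell types were counted as whole lists, beside 13.9% higher and 15.4% lower over all tested genes. Of 3 tested erythroid genes 1 rose, of 9 megakaryocyte genes 2 rose and 2 fell, of 9 mast cell and basophil genes 1 rose, and of 5 eosinophil genes 2 fell. Of 4 T and NK cell genes 1 rose and 1 fell, of 8 stromal genes 1 rose and 2 fell, and of 3 endothelial genes 2 rose and 1 fell. Of 8 tested B cell genes 3 rose and 1 fell. Of the tested genes, 4 of the mast cell and basophil list, 1 of the megakaryocyte list and 1 of the T and NK cell list had no counts in these 6 libraries and passed the filter through other groups. Several of these small counts rest on single libraries. The rise of the T and NK cell gene did not pass without KO + ATRA library 1 or 2 or W/O ATRA library 1 or 3, that of the erythroid gene without KO + ATRA library 1 or 3 or W/O ATRA library 1 or 3, and that of the stromal gene without any 1 of the 6. The fall of the B cell gene did not pass without library 3 of either group. Vpreb1, 1 of the 3 B cell genes that rose, did not pass without KO + ATRA library 2 or 3 or W/O ATRA library 1 or 3. Its call was also lost with DESeq2, with no filter and with the 12 H9M libraries alone. Neither eosinophil gene passed without KO + ATRA library 2 or W/O ATRA library 3. Summed levels not given above were 1.98 to 2.05 CPM with ATRA and 0.916 to 1.88 CPM without for erythroid genes, and 4.36 to 4.92 CPM with ATRA and 4.69 to 5.97 CPM without for eosinophil genes. Summed T and NK cell genes had 11.2 to 12.96 CPM with ATRA and 12.5 to 15.2 CPM without, and endothelial genes 60.2 to 66.7 CPM with ATRA and 77.1 to 83.0 CPM without. The part of such cells in the results was not tested. Most of the B cell sum was Ighm, the IgM heavy chain gene, with 153, 152 and 148 CPM with ATRA and 88.2, 86.2 and 86.3 CPM without (log2 fold change 0.82 ± 0.04). Ebf1, a B cell factor gene, rose to 3.89 ± 0.477 CPM with ATRA against 2.07 ± 0.285 CPM without, but the control share would supply 56.6% of that level, and after removal its log2 fold change was -0.09 (adjusted p = 0.791).

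The share of control RNA that Kdm1a would imply bears unequally on the genes named. By construction it equals the whole Kdm1a level, and it exceeded that of Thbs1, the thrombospondin gene, so that no value of Thbs1 after removal can be read. It was 7.83% of the level with ATRA for Hoxa9, 3.61% for Cyp26a1, 2.33% for Hic1 and 0.446% for Mmp9. The CYP26 genes, Rarb, Nrip1, Hic1, Mmp9, Mmp12 and Sorcs2 all stayed called higher after removal.

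**Figure D4:**
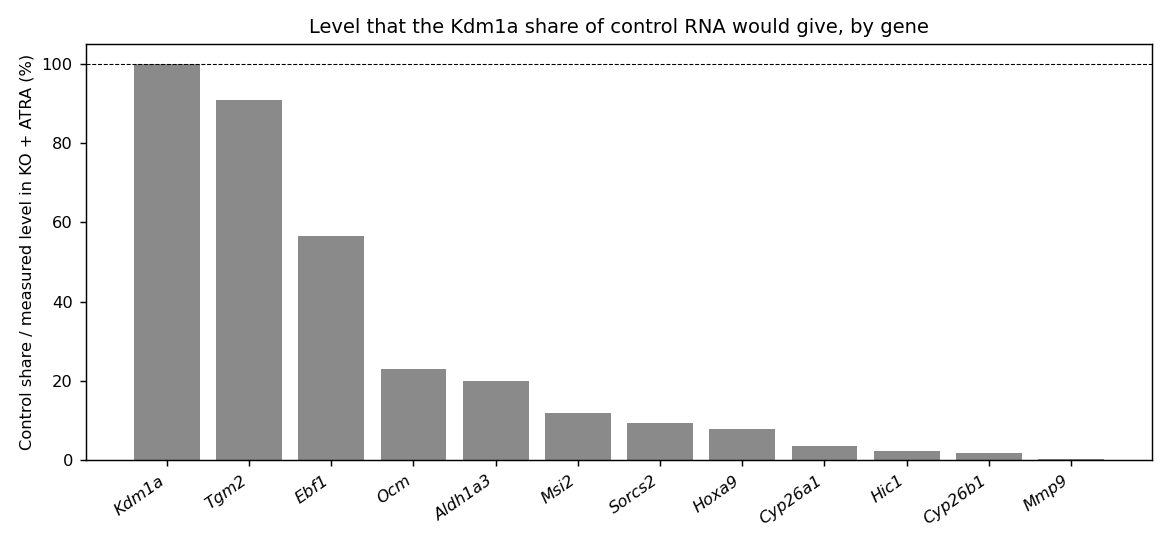
Level that 7.51% of control RNA with ATRA would supply, as a percent of the measured mean in the KO + ATRA libraries, for 12 genes. Kdm1a is at 100% by construction (dashed line), Tgm2 at 91.0% and Ebf1 at 56.6%, and Mmp9 is at 0.446%.

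Whether the response in knockout cells differs from that in control cells was tested as a difference of the ATRA effects, H9M KO minus H9M CTL. The difference was called for 739 genes (5.04%), 330 positive (2.25%) and 409 negative (2.79%). Control cells alone had 3695 called genes (25.2%), 1887 higher (12.9%) and 1808 lower (12.3%). Of the 4305 genes called in knockout cells, 1258 were higher and 1087 lower in both, and 63 went opposite ways, all 63 with a called difference. Across the 11076 genes with at least 1 CPM in both untreated groups, the ATRA effects in knockout and control cells correlated with r = 0.767, a description across genes that are not independent. Over all tested genes r was 0.517. Among genes called in knockout cells with a called difference, 177 had a larger and 91 a smaller effect of the same direction in knockout cells, and 263 were not called in controls.

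**Figure D5:**
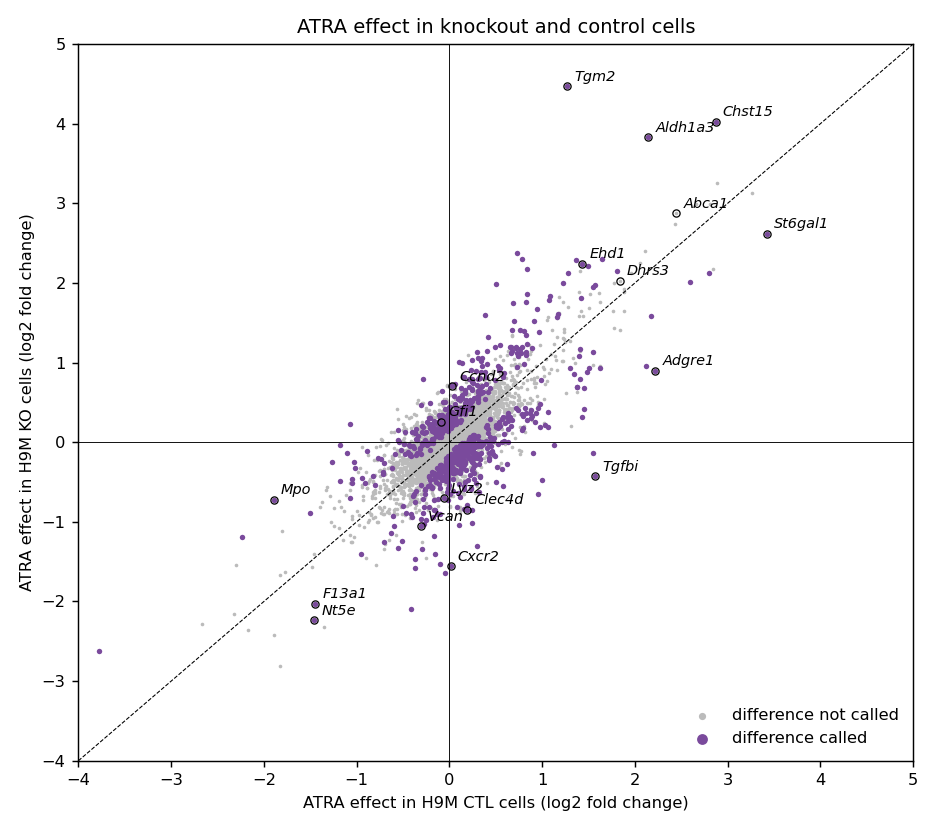
ATRA effect in H9M KO cells (vertical) against that in H9M CTL cells (horizontal), in log2 fold change, for 11076 genes with at least 1 CPM in both untreated groups. Purple genes had a called difference and the dashed line marks equal effects; Aldh1a3 and Tgm2 lie above the line, Adgre1 and Tgfbi below it, and Mpo fell less in knockout cells.

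Mmp9 had the larger rise in knockout cells. Controls had 17.9, 15.7 and 14.1 CPM with ATRA and 0.81, 0.781 and 0.824 CPM without, and the difference of the log2 effects was 2.74 ± 0.35 (adjusted p = 2.87e-06). Sdc1, a heparan sulfate proteoglycan gene, had 30.3, 31.5 and 33.2 CPM with ATRA and 2.86, 2.59 and 2.89 CPM without in knockout cells, and 1.25, 0.78 and 0.837 CPM with ATRA and 0.925, 0.816 and 0.942 CPM without in controls, a difference of 3.38 ± 0.29 (adjusted p = 2.01e-09). Sdc1 thus rose in knockout cells and did not pass the test in controls (adjusted p = 0.717). On the log2 scale Aldh1a3 and Mmp12 rose further in knockout cells, by differences of 1.69 ± 0.06 and 1.40 ± 0.28, as did Plcl1, by 2.58 ± 0.44. For Aldh1a3 the untreated level was lower in knockout cells, and controls had more of it with ATRA. For Sorcs2 the difference was 2.66 ± 0.37, from a lower untreated level, and controls reached 282, 296 and 295 CPM with ATRA. Tgm2 differed by 3.20 ± 0.13, on levels that hold the control share given above. Its level was far lower in knockout cells than in controls, both with and without ATRA. Ccnd2 rose in knockout cells and not in controls, which had 227, 219.9 and 228 CPM with ATRA and 222, 226 and 231 CPM without (difference 0.68 ± 0.05, adjusted p = 9.19e-11).

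Klf5, a zinc-finger factor gene, went opposite ways: it had 7.76, 7.45 and 7.31 CPM with ATRA and 1.74, 1.44 and 1.87 CPM without in knockout cells, and 0.22, 0.173 and 0.44 CPM with ATRA and 0.732, 0.639 and 0.471 CPM without in controls (difference 3.29 ± 0.36, adjusted p = 1.16e-07). Tgfbi, a secreted adhesion protein of macrophages, had 42, 42.1 and 41.1 CPM with ATRA and 56.3, 57.4 and 57.2 CPM without in knockout cells, and 40, 36.9 and 38.9 CPM with ATRA and 13.3, 13.8 and 12.9 CPM without in controls (difference -2.00 ± 0.08, adjusted p = 2.46e-17). Tgfbi thus fell in knockout cells and rose in controls, and the levels with ATRA lay near each other. Clec4d and Spp1, the osteopontin gene, both chosen for this after their values were seen, fell in knockout cells and rose in controls, with differences of -1.04 ± 0.08 and -1.10 ± 0.11.

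Other genes, phagocyte genes among them, fell in knockout cells while controls moved less. Lyz2 had 130.2, 136 and 128 CPM with ATRA and 149, 140.1 and 133 CPM without in controls, a difference of -0.64 ± 0.07 (adjusted p = 7.75e-08). The difference was -0.80 ± 0.15 for Cybb, -1.57 ± 0.25 for Cxcr2, -0.75 ± 0.10 for Vcan, -2.08 ± 0.35 for Emp1 and -2.00 ± 0.41 for Saa3. Controls held these genes at lower levels without ATRA, with Cybb at 2.96 CPM and Cxcr2 at 2.09 CPM. Mpo went the other way: controls had 1450.5, 1434 and 1454 CPM with ATRA and 5482, 5556 and 5510.4 CPM without, so it fell by 1.89 on the log2 scale there and by 0.72 in knockout cells (difference 1.17 ± 0.05, adjusted p = 5.93e-17). P2rx7, Sulf2 and Adgre1 rose in both and less in knockout cells, with differences of -3.01 ± 0.47, -2.92 ± 0.22 and -1.32 ± 0.12 from higher untreated levels.

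Of the regulators, Gfi1 rose in knockout cells and did not pass in controls (difference 0.34 ± 0.05, adjusted p = 5.03e-05), and Irf8 fell in knockout cells and rose in controls (difference -0.38 ± 0.09, adjusted p = 0.00551). After removal of the control share the Irf8 difference did not pass (-0.27, adjusted p = 0.0568). Rarg fell in knockout cells and did not pass in controls (adjusted p = 0.742), with a difference of -0.51 ± 0.10 (adjusted p = 0.00131). The differences did not pass for Rara (adjusted p = 0.962), Rarb (0.923), Cyp26a1 (0.633), Hoxa9 (0.0795), Meis1 (0.156) or Spi1 (0.973), which does not show that these effects are alike.

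With the same knockout and ATRA dose, MN1-transformed cells shared part of the changes. The ATRA effect differed between H9M and MN1 knockout cells for 1977 genes (13.5%), 1072 positive (7.31%) and 905 negative (6.17%). MN1 knockout cells alone had 2759 called genes (18.8%), 1234 higher (8.42%) and 1525 lower (10.4%). A total of 663 genes were higher and 658 lower in both, and 142 went opposite ways, each with a called difference. The libraries of each model carry a tag of their own in their names, whose meaning the labels do not give, so levels of the models and of the tags cannot be told apart, while each ATRA effect is taken within 1 tag.

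Several retinoid responders of H9M knockout cells were little changed in MN1 knockout cells. Rarb had 0.39, 0.321 and 0.367 CPM with ATRA and 0.305, 0.0801 and 0.193 CPM without in MN1 knockout cells, where it did not pass the test (adjusted p = 0.201; H9M minus MN1 5.72 ± 0.67, adjusted p = 1.83e-07). Nrip1 had 30.5, 29 and 26.3 CPM with ATRA and 25.4, 24.9 and 21.4 CPM without there, a small rise (log2 fold change 0.21 ± 0.07, adjusted p = 0.0405, difference 7.61 ± 0.24, adjusted p = 2.52e-20). Pde11a had 68.9, 68.7 and 70.3 CPM with ATRA and 67.1, 64.8 and 65.9 CPM without there (difference 6.65 ± 0.24). Nrip1 and Pde11a were thus already expressed in untreated MN1 knockout cells and nearly silent in untreated H9M knockout cells. Cyp26b1, Hic1 and Myh14 rose in both models and further in H9M, with differences of 7.84 ± 0.55, 4.56 ± 0.79 and 6.32 ± 1.45, and Cdkn1c did not pass in MN1 (difference 6.69 ± 0.65).

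In the other direction, Mansc1, a membrane protein gene, rose slightly in H9M knockout cells, with 72.4, 71.7 and 74.1 CPM with ATRA and 58.5, 61.8 and 60.5 CPM without, and by a larger factor in MN1 knockout cells, at far lower levels, with 0.779, 1.45 and 1.38 CPM with ATRA and 0.153, 0 and 0.154 CPM without (difference -3.15 ± 0.44, adjusted p = 3.98e-06). S100a9 fell further in H9M (difference -3.55 ± 0.31, adjusted p = 1.75e-09). Irf8 fell in H9M knockout cells and rose in MN1 knockout cells, which had 32.1, 34.7 and 32.1 CPM with ATRA and 24.1, 25.2 and 24.6 CPM without (difference -0.52 ± 0.06, adjusted p = 5.72e-07). Hoxa9 did not pass in MN1 knockout cells, at 73.1, 67.8 and 68 CPM with ATRA and 65.1, 69.4 and 70 CPM without (difference 0.66 ± 0.07). Sorcs2 rose in both, to 51.7, 60.4 and 57.7 CPM with ATRA against 0.0381, 0.0801 and 0.0385 CPM without in MN1 knockout cells, and its difference did not pass (adjusted p = 0.985).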

How the data were processed

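RNA was measured by TruSeq stranded total RNA sequencing with 100-base paired reads, per the labels' protocols. Reads were aligned with STAR 2.5.3 to mm10, per the submitters' processing notes. The authors' deposited table gives whole-number counts of reads for each gene in each library. No source used here names the counter, gene models or strand setting, so overlapping, antisense and paralogous genes are uncertain. Ensembl IDs were looked up in a table of gene symbols: 48349 matched and 446 did not. Promoter sequences are from RefSeq (GRCm38.p6). The H3K4me2 peak files of bone marrow were not used here.

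Low-count genes were removed with filterByExpr and libraries scaled with TMM factors (edgeR 4.0.16, limma 3.58.1, R 4.3.3). A single quasi-likelihood model of all 24 RNA libraries in 8 groups (16 residual degrees of freedom) gave every contrast, so the groups share 1 estimate of the spread. Tests were two-sided, with Benjamini-Hochberg adjustment over 14663 genes and a threshold of 0.05. ± marks the SD of 3 libraries for a CPM and an approximate SE for a log2 value. This SE is the size of the log2 value over the square root of the test's F statistic. It is least certain where a group is near 0 counts. Intervals and floors cover counting error only. Libraries of a group differed by more than sampling noise (chi-square per degree of freedom 1.99 to 6.97), so none was counted as a duplicate. The script was tested on simulated data. Alternatives were RLE normalisation, DESeq2 1.42.0, no filter, at least 1 CPM in 3 libraries, fewer libraries in the fit, a replicate block, each knockout library left out, and removal of the control share.

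The members, lists and rules were chosen with earlier results of these data known. The 36 lists hold 702 genes, 573 of them tested, and some genes belong to several. Named genes are Kdm1a, Hoxa9, Meis1, Gfi1, Gfi1b, Spi1, Irf8, Rara and Cyp26a1; the 15 largest rises and 15 largest falls with at least 5 CPM and no overlap; the 8 largest differences each way; up to 6 members of each list by adjusted p; and all retinoid genes. Other list members, and Spp1, were chosen after their values were seen. Not every gene under the rule is named, and results for some genes are not reported here.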

Additional observations from a re-analysis of the deposited data

Results flagged for a closer look

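These values are differences between ATRA effects (log2, edgeR's quasi-likelihood test of the difference, adjusted p under 0.05), listed because 2 groups of cells responded differently. They were drawn from 739 and 1977 called differences. Between H9M knockout and H9M control cells the effect was more positive in knockout cells for Sdc1 (3.38), Klf5 (3.29), Tgm2 (3.20), Mmp9 (2.74), Sorcs2 (2.66), Plcl1 (2.58), Aldh1a3 (1.69), Mmp12 (1.40), Mpo (1.17), Ccnd2 (0.68) and Gfi1 (0.34). It was more negative in knockout cells for P2rx7 (-3.01), Sulf2 (-2.92), Emp1 (-2.08), Saa3 (-2.00), Tgfbi (-2.00), Cxcr2 (-1.57), Adgre1 (-1.32), Spp1 (-1.10), Clec4d (-1.04), Cybb (-0.80), Vcan (-0.75), Lyz2 (-0.64), Rarg (-0.51) and Irf8 (-0.38).

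Between H9M and MN1 knockout cells the effect was more positive in H9M for Cyp26b1 (7.84), Nrip1 (7.61), Cdkn1c (6.69), Pde11a (6.65), Myh14 (6.32), Rarb (5.72), Hic1 (4.56) and Hoxa9 (0.66). It was more negative in H9M for S100a9 (-3.55), Mansc1 (-3.15) and Irf8 (-0.52). Cyp26b1 had 2 counts over untreated H9M knockout cells, so the size of its fitted difference depends on the prior count. The origin of the Kdm1a reads, which bears on Tgm2, Aldh1a3 and Sorcs2, was not tested. All 3 genes had a lower untreated level in H9M knockout cells than in controls, and controls had more of each with ATRA.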

How the results depend on the processing

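For the ATRA effect in H9M KO cells, 4305 genes were called, and 4261 with RLE normalisation, 4072 with DESeq2, 4098 with no filter, 4235 with the stricter filter, 3911 with the 12 H9M libraries alone and 3920 with the 6 knockout libraries alone. DESeq2 called 4027 of the 4305 in the same direction. Without 1 of the 6 knockout libraries the count was 3515 to 4159, and 2737 genes were called in all 6 such fits. The ATRA effect, H9M KO minus H9M CTL, was called for 576 to 661 genes without 1 library, against 739. The ATRA effect in KO cells, H9M minus MN1, was called for 1645 to 1829, against 1977. Deviations of same-numbered libraries correlated at 0.029, 0.097 and 0.090, and those of other-numbered libraries at -0.135 to 0.047. Whether the replicate numbers pair the libraries was not settled. With the replicate block 4308 genes were called, 4190 of them among the 4305. Over all alternatives and 656 genes examined one by one, a call was lost 278 times and gained 95 times, and Ebf1 changed sign with the control share removed (Ebf1 log2 fold change, ATRA in H9M KO, -0.086). Of 76 counts of list members called higher or lower, up to 11 moved by over 1.5 times under an alternative. Of the printed differences, that of Irf8 was the one to miss the threshold under any alternative run. Fits of H9M libraries alone give no value for differences to MN1. Depth limits genes near 0 counts, where fitted folds depend on the prior count.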

Other observations

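Genes of purine signalling outside the cell, to which Cd38 and Nt5e belong, moved in both directions. These 26 genes were listed after values had been seen, and of 18 tested 8 rose, 4 fell and 6 did not pass the test (median 0.18), with 2 falls without W/O ATRA library 3. P2rx7, the ATP-gated channel of macrophages, had 102, 104 and 101 CPM with ATRA and 6.87, 7.38 and 6.08 CPM without, a 15.4-fold rise (log2 fold change 3.94 ± 0.09, adjusted p = 1.06e-24). P2rx1 rose to 144 ± 5.62 CPM with ATRA against 37.1 ± 0.6 CPM without, and P2rx4 to 47.1 ± 3.31 CPM with ATRA against 12.9 ± 0.261 CPM without. Adora2a, an adenosine receptor gene, rose to 10.1 ± 1.02 CPM with ATRA against 3.17 ± 0.198 CPM without, and Entpd1, the ATP-degrading CD39, did not pass the test, with 78.8 ± 1.5 CPM with ATRA and 82.9 ± 1.71 CPM without.

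Glycolysis and hypoxia response genes, 22 listed in the same way, also split: 4 rose, 10 fell and 8 did not pass the test (median -0.09), beside 13.9% higher and 15.4% lower over all tested genes. In controls 16 of the 22 rose with ATRA (12.9% of all tested genes), and the difference between knockout and control effects was called for 14 (5.04% of all tested genes). Ldha, lactate dehydrogenase, had 1839.5, 1950.4 and 1912 CPM with ATRA and 2122, 2027 and 2080.0 CPM without in knockout cells, and 2771, 2853 and 2746 CPM with ATRA and 2438, 2430.3 and 2456 CPM without in controls. Bnip3, a mitophagy gene induced by hypoxia, had 54.6, 49.4 and 57.1 CPM with ATRA and 69.4, 73.9 and 73.7 CPM without in knockout cells, and 89.4, 90.8 and 87.7 CPM with ATRA and 86.6, 77.5 and 72.4 CPM without in controls.

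Further large rises, also chosen after their values were seen, were those of Chst15, a chondroitin sulfate sulfotransferase (56.3 ± 1.31 CPM with ATRA, 3.5 ± 0.233 CPM without), the growth factor Igf1 (274 ± 2.62 CPM with ATRA, 63.4 ± 4.81 CPM without), the endocytic recycling gene Ehd1 (446 ± 23.4 CPM with ATRA, 96 ± 2.8 CPM without) and the sialyltransferase St6gal1 (181 ± 1.05 CPM with ATRA, 29.9 ± 1.96 CPM without). Csn2, the beta-casein gene, fell to 563 ± 40.7 CPM with ATRA against 1516 ± 55.7 CPM without, while Csn3, the kappa-casein gene, rose.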
